A study of Mus musculus with 4 samples.

Results

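The 8 genes described here encode myeloid C-type lectin receptors: Clec4n, Clec4d, Clec4e, Clec7a, Clec12a, Clec4a1, Clec4a2 and Clec4a3, out of 55450 genes in the count tables. They were chosen by symbol, and Clec4n was included because its level in neutrophils was low in the TAA+C30 library, so that neutrophil value is a description and carries no weight of its own. The measurement was droplet single-cell RNA sequencing of nonparenchymal cells of the liver, from 4 groups of 1 mouse and 1 library each; all mice were wild type, of the C57B6 strain, and 18 to 20 weeks old. The TAA mouse had received thioacetamide, a toxin used to scar the liver, into the peritoneum over 12 weeks. Celecoxib was added to that course by gavage from week 5, at 7.5 mg/kg in the TAA+C7.5 mouse and at 30 mg/kg in the TAA+C30 mouse. Celecoxib inhibits cyclooxygenase-2, the product of Ptgs2. The control mouse had received normal saline. With 1 mouse per group no test between groups was possible: intervals are 95% intervals of counting error only, and group, mouse and library cannot be told apart.

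C-type lectin receptors of myeloid cells bind sugars and lipids of microbes and of damaged cells. Clec4n (dectin-2), Clec4d (MCL) and Clec4e (Mincle) have short tails and signal through the adaptor Fc receptor gamma chain, encoded by Fcer1g, to the kinase Syk and the adaptor Card9. Clec7a (dectin-1, the beta-glucan receptor) carries its own Syk-recruiting motif in its tail. Clec12a (MICL) and Clec4a2 (DCIR) are inhibitory receptors that recruit phosphatases such as the product of Ptpn6, and Clec4a1 and Clec4a3 are relatives of Clec4a2.

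All 8 genes lie on chromosome 6 (GENCODE M21, GRCm38, the build called mm10). In order along the chromosome, the first stretch holds Clec4a1 (chr6:122921848-122934619, plus strand), Clec4a3 (chr6:122952515-122969875, plus), Clec4a2 (chr6:123106428-123143999, plus), Clec4n (chr6:123229843-123247021, plus), Clec4d (chr6:123262111-123275265, plus) and Clec4e (chr6:123281789-123289870, minus). The second stretch holds Clec12a (chr6:129342691-129365303, plus) and Clec7a (chr6:129461591-129472779, minus). The annotation classes Clec7a as a polymorphic pseudogene and the other members as protein coding. The only annotated gene that overlapped a member was the processed pseudogene Gm44132, on the strand of Clec4a2. Because reads come from the 3 prime end, the last 500 bases of each member's transcripts were compared with all other transcripts in words of 50 bases. No word was shared for Clec4d, Clec4e, Clec7a, Clec12a, Clec4a1 or Clec4a3. Of the words of Clec4n 1.10% occurred in Gm44147, and of those of Clec4a2 8.96% occurred in Clec4a4 or Clec4b1, so reads of Clec4a2 from those words are uncertain.

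The promoters of the pairs whose levels were most alike over classes and libraries, Clec4d with Clec4e and Clec4a1 with Clec4a3, are printed from RefSeq (GRCm38.p6), 250 bases before to 50 after the start on the gene's own strand. RefSeq windows were found for 7 of the 8 members, 9 windows in all, and Clec4n was not among them. Capitals mark matches, on either strand, to GAGGAA, the core bound by the myeloid factor PU.1, or to TTNNGCAA, a C/EBP site; none of the marked matches overlapped. The windows are chr6:123261857-123262156 (plus) for Clec4d, chr6:123289822-123290121 (minus) for Clec4e, chr6:122921598-122921897 (plus) for Clec4a1, and chr6:122952394-122952693 (plus) for the downstream of both starts listed for Clec4a3.
Clec4d: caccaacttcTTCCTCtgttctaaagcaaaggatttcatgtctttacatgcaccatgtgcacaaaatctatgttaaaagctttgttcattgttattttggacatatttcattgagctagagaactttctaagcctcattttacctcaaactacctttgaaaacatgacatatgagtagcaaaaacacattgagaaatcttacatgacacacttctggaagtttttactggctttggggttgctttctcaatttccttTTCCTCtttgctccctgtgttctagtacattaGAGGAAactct
Clec4e: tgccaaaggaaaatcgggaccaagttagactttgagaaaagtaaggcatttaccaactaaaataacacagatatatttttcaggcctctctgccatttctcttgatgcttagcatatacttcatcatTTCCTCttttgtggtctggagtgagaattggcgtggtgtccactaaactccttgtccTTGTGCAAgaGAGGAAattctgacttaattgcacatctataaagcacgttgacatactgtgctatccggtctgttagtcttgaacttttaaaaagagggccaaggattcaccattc
Clec4a1: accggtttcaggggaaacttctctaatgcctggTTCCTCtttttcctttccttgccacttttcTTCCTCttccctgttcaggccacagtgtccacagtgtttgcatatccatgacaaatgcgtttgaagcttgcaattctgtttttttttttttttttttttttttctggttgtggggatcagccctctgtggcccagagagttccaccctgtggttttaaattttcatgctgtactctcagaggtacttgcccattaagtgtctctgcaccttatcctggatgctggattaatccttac
Clec4a3: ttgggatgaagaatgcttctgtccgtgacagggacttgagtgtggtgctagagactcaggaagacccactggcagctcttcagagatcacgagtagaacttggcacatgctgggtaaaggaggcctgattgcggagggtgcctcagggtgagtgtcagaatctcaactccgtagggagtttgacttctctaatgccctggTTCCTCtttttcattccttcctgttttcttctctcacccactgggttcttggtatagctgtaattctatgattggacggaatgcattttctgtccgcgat

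GAGGAA was found in at least 1 window of 6 of the 7 members with a window, all but Clec4a2, and in 28.3% of all 32851 RefSeq promoter windows. It occurred 3 times in the window of Clec4d, and the Clec4e window held 2 matches with a TTNNGCAA match between them. TTNNGCAA was found for 2 members, Clec4e and Clec12a, against 10.8% of all windows, and TGANTCA, the AP-1 letters, for 2 members, Clec12a and Clec4a2, against 7.81%. The Clec4a1 and Clec4a3 windows printed above shared a run of 17 identical bases, the longest run shared by the windows of any pair of members. These matches describe letters only and show no binding.

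Cells were grouped with the 8 members left out of the genes used for clustering, and clusters were named from fixed markers. There were 6 myeloid classes: neutrophils, monocytes or macrophages, Kupffer cells (the resident macrophages of the liver), conventional dendritic cells 1 and 2 (cDC1 and cDC2) and plasmacytoid dendritic cells (pDC). All 11 Kupffer markers, including Clec4f, marked the Kupffer cluster, and 12 of 12 neutrophil markers marked the largest neutrophil cluster. Some other names rest on fewer markers. The cDC2 class took in a cluster marked by 10 of 10 migratory dendritic cell markers, and its other clusters passed 7 to 9 of 12 cDC2 markers. A low-depth cluster of monocytes or macrophages passed 3 of 10 classical monocyte markers. Kept cells numbered 6460 in TAA, 5911 in TAA+C7.5, 6062 in TAA+C30 and 5666 in control, with medians of 4571, 1967, 3100.5 and 3357 UMIs (unique molecular identifiers, counted transcripts) per cell in that order and 17083203 to 47347437 UMIs per library. Any pair of libraries shared 7 to 13 barcodes. The level of a gene in a class is its summed UMIs as its CPM, the usual unit of counts scaled to a common total, here all UMIs of that class in that library. Libraries with fewer than 50 cells of a class were left out of its comparisons: Kupffer cells numbered 39 in TAA+C7.5 and 20 in TAA+C30, and cDC1 numbered 21 in control.

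The members divided the myeloid classes between them. Over all 4 libraries neutrophils held 81.9% of the UMIs of Clec4d, 64.3% of those of Clec4e and 31.9% of those of Clec4n. Monocytes or macrophages held 85.5% of the UMIs of Clec4a3, 82.4% of Clec4a1, 69.0% of Clec4a2, 61.1% of Clec7a and 59.1% of Clec12a, and 48.5% of Clec4n. The control library departed from this: there neutrophils held 50.5% of the Clec7a UMIs and monocytes or macrophages 25.9%, and Kupffer cells held 49.0% of those of Clec4n and monocytes or macrophages 13.4%. These shares weigh each class by how many cells and UMIs it gave, so the levels below are the better guide to each cell type. In T cells, which should lack these receptors and so show the background of free RNA, Clec4n ranged from 0 to 2.67 CPM and Clec7a from 1.61 to 12.0 CPM.

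Clec4n was highest in Kupffer cells and neutrophils. In Kupffer cells it stood at 177 CPM in TAA, 276 in TAA+C7.5, 361 in TAA+C30 and 186 in control, the TAA+C7.5 and TAA+C30 values resting on 46 and 38 UMIs. In neutrophils it stood at 228, 107, 58.1 and 126 CPM in the same order. In monocytes or macrophages the range was lower, 30.7 to 70.1 CPM, and in cDC2 6.59 to 15.6 CPM. Its levels in cDC1 and pDC did not pass 3.57 CPM, near the T cell background.

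Clec4d and Clec4e were neutrophil genes first. Clec4d stood at 1556, 1347, 699 and 2269 CPM in TAA, TAA+C7.5, TAA+C30 and control neutrophils, against 38.6 to 73.1 CPM in monocytes or macrophages. Clec4e stood at 2163, 2119, 1504 and 1940.2 CPM in neutrophils and at 213 to 333 CPM in monocytes or macrophages. In Kupffer cells and every dendritic class both genes stayed at 30.0 CPM or less. Clec4n and its 2 neighbours therefore differed in Kupffer cells, where Clec4n was at least 177 CPM in every library.

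Clec7a was high in more classes than Clec4d or Clec4e. It ranged from 533 to 2155 CPM in neutrophils, 616 to 1330.4 in monocytes or macrophages, 420.5 to 1122 in Kupffer cells and 351 to 849.6 in cDC2. In cDC1 and pDC it ranged only from 2.82 to 50.0 CPM and from 0 to 31.9 CPM, highest in TAA in both. The 13 macrophage markers in pDC were also highest in TAA, at 2179 CPM against 466 to 549 CPM in the other libraries; their part in the value was not tested.

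Clec12a was the only member past 50.0 CPM in pDC or cDC1. It stood at 433, 369, 401 and 480.4 CPM in pDC of TAA, TAA+C7.5, TAA+C30 and control, and at 161 to 236 CPM in cDC1. It reached 209 to 345 CPM in monocytes or macrophages and 219 to 438 CPM in Kupffer cells, and was lowest in neutrophils, at 72.0 to 129 CPM, and cDC2, at 52.7 to 164 CPM. The other 7 members did not pass 50.0 CPM in cDC1 or 31.9 CPM in pDC in any library.

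Clec4a1 and Clec4a3 ran together in monocytes or macrophages (204 to 436 and 221 to 480.2 CPM) and in Kupffer cells (152 to 432 and 175 to 298 CPM). Neutrophils held 5.05 to 9.89 CPM of Clec4a1 and 13.2 to 21.2 CPM of Clec4a3. Clec4a2 differed from both in neutrophils, at 120.0 CPM in TAA, 93.5 in TAA+C7.5, 222 in TAA+C30 and 93.3 in control. Among the members, neutrophil levels along the first stretch of chromosome 6 rose from Clec4a1 and Clec4a3 through Clec4a2 and Clec4n to Clec4d and Clec4e. Levels in monocytes or macrophages kept no such order. There Clec4e, at 213 to 333 CPM, stood in the range of Clec4a1 and above Clec4n, at 30.7 to 70.1 CPM.

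**Figure D1:**
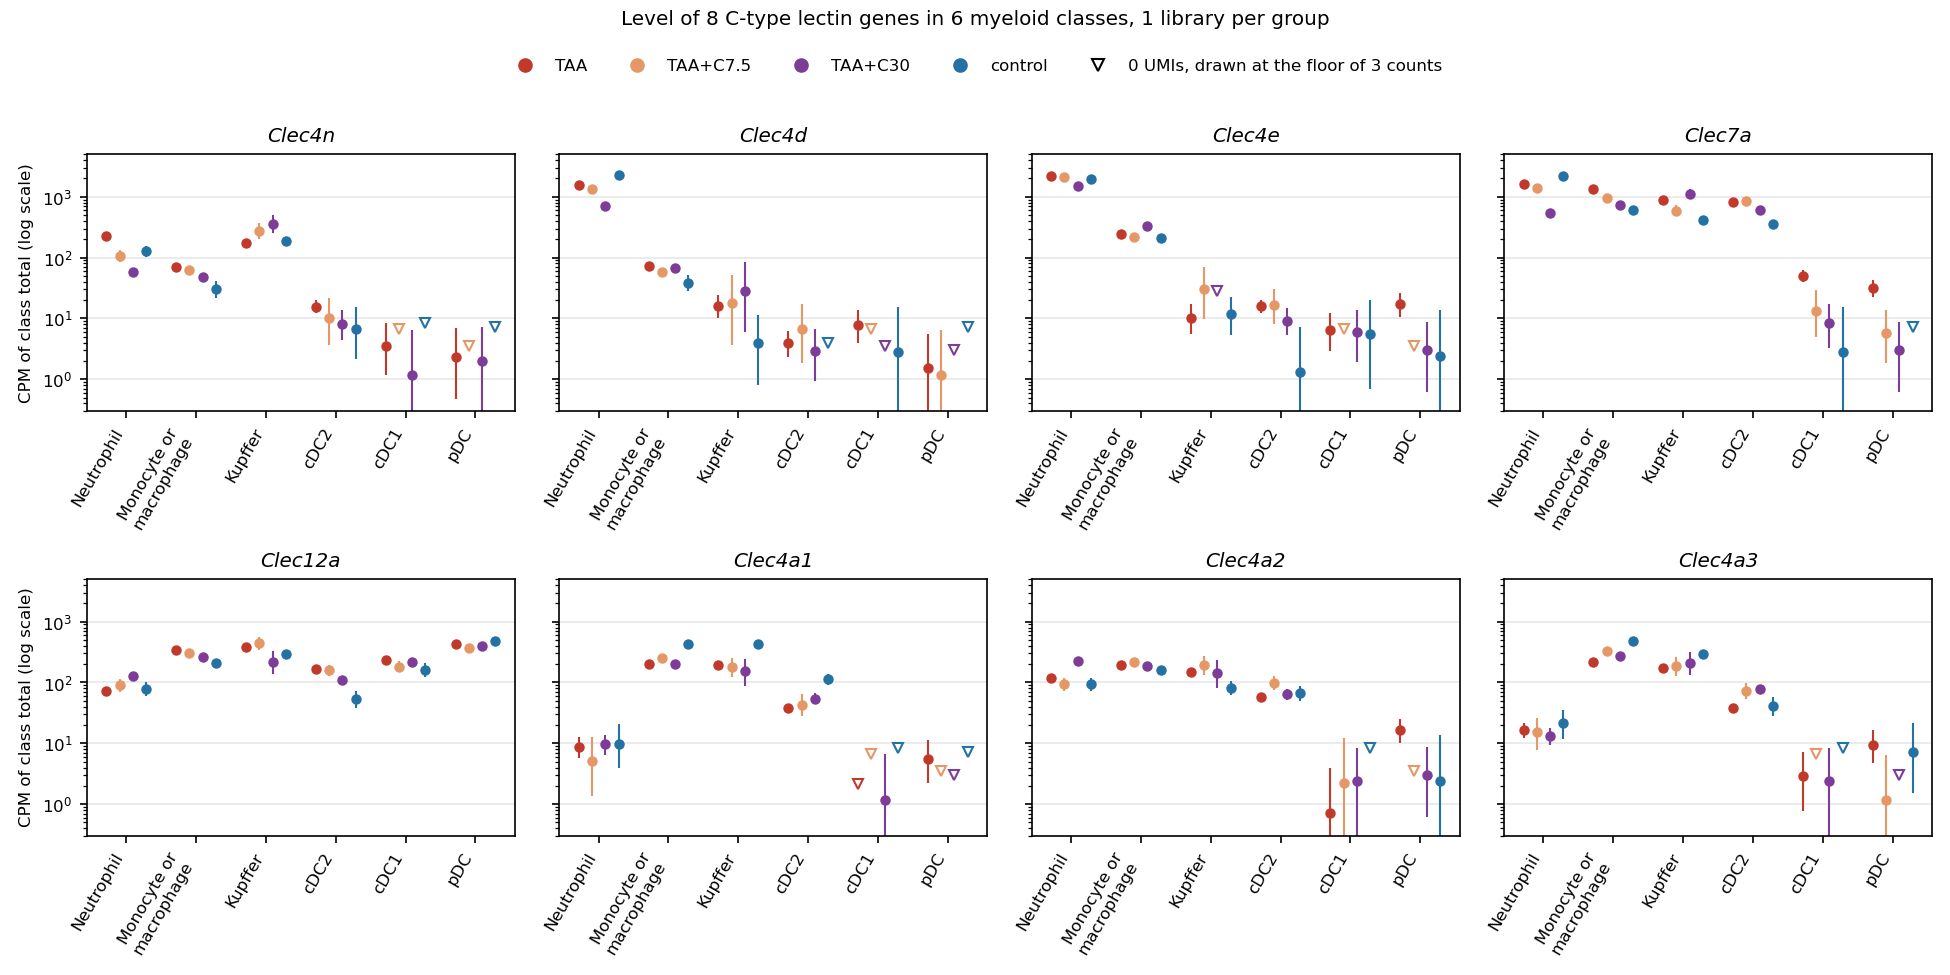
CPM of each member (log axis) in 6 myeloid classes, 1 point per library, with exact Poisson 95% intervals, some running past the axis; open triangles mark libraries with 0 UMIs, drawn at the floor of 3 counts. Clec4d and Clec4e stand highest in neutrophils, Clec12a is above 150 CPM in pDC and cDC1, and Clec4n is above 170 CPM in Kupffer cells.

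The neighbouring lectin genes had levels of other kinds. Clec4b1, between Clec4a3 and Clec4a2, ranged from 42.2 to 105 CPM in cDC2 and did not pass 0.338 CPM in neutrophils. Clec4a4 and Clec4b2 did not pass 1.26 and 2.03 CPM in neutrophils or 0.787 and 0.429 CPM in monocytes or macrophages. Between Clec12a and Clec7a, Clec1b reached 488 to 846 CPM in Kupffer cells and Clec9a, a receptor for dead cells, reached 256 to 395 CPM in cDC1.

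**Figure D2:**
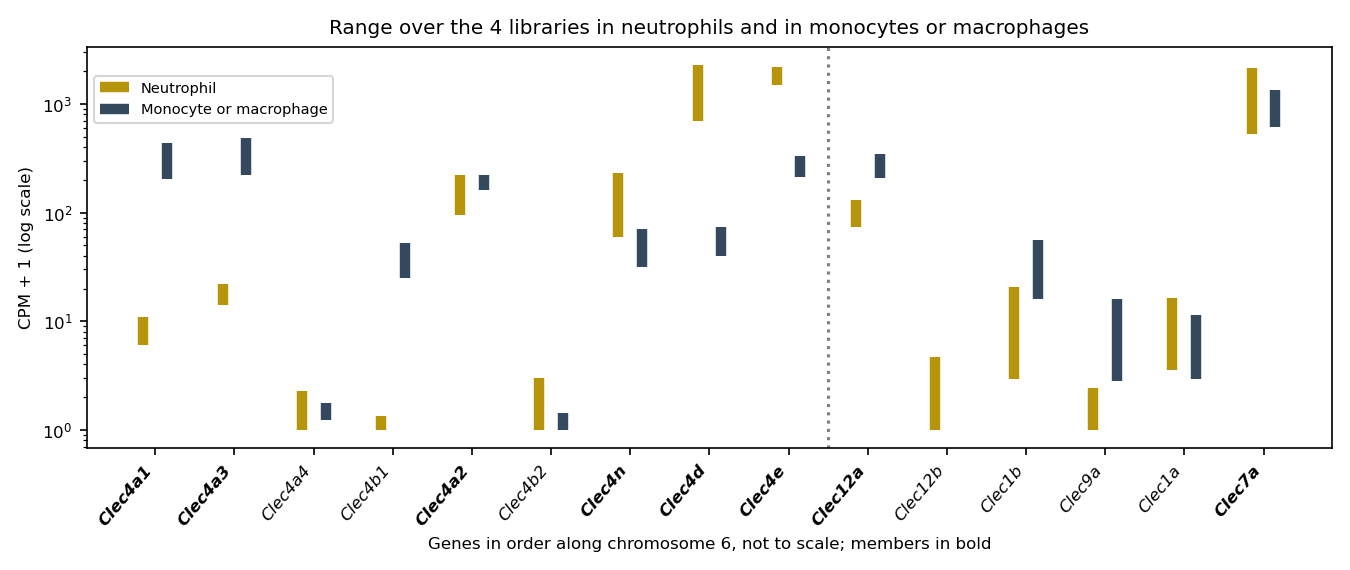
Range over the 4 libraries of CPM + 1 (log axis) in neutrophils and in monocytes or macrophages, for the protein coding genes of both stretches of chromosome 6 and Clec7a, in their order and not to scale, with members in bold and the stretches parted by a dotted line. Clec4a1 and Clec4a3 are high in monocytes or macrophages and Clec4d and Clec4e in neutrophils.

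Likeness was measured as Pearson's r of log2(CPM + 10) over 45 combinations of class and library, which share libraries and depth and so are not independent. The gene pairs most alike among the members were Clec4a1 and Clec4a3 (r = 0.975) and Clec4d and Clec4e (r = 0.965), followed by Clec7a and Clec4a2 (r = 0.955). The genes most like Clec4n were Cd300ld (0.974), Pilrb2 (0.968), Pilra (0.960), Pilrb1 (0.955) and Siglece (0.954), all encoding myeloid surface receptors. Clec4d was most like Csf3r (0.979), the receptor for the neutrophil growth factor G-CSF, and Clec4e most like Clec5a (0.980), another lectin receptor. Clec12a was most like Mpeg1 (0.978), which encodes the pore-forming protein perforin-2, and Clec4a2 most like Igsf6 (0.969). Clec4n and Clec4d, although neighbours, had r = 0.780.

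The neutrophils fell into 3 clusters, which the members had no part in making, and the members differed between them. The first was led by Ccrl2, Bcl2a1a, Slfn4, Igfbp6 and Clec5a, the second by Gm5483, Stfa2l1, Ifitm1, Asprv1 and Mirt2. The third was led by the granule genes Ltf, Ngp and Camp with Itgb2l and Cd177, and 11 of 12 immature neutrophil markers marked it. The immature cluster held 368 of 1118 neutrophils in TAA+C30 (32.9%, exact binomial interval 30.2 to 35.8%), 36 of 581 in TAA+C7.5 (6.20%), 42 of 1147 in TAA (3.66%, 2.65 to 4.92%) and 1 of 262 in control (0.382%). The Ccrl2-led cluster held 589 of the neutrophils in TAA (51.4%), 145 in TAA+C7.5, 234 in TAA+C30 (20.9%) and 43 in control (16.4%).

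Clec4n was a gene of the Ccrl2-led cluster. There it stood at 403 CPM in TAA, 332 in TAA+C7.5, 363 in TAA+C30 and 297 in control, against 105, 57.5, 63.8 and 98.9 CPM in the Gm5483-led cluster of the same libraries. The first cluster was the higher in every library. In the immature cluster 2 UMIs of Clec4n were counted in 42 cells of TAA (6.33 CPM), 0 in 36 cells of TAA+C7.5 and 2 in 368 cells of TAA+C30 (1.09 CPM, exact Poisson interval 0.132 to 3.94).

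Clec7a and Clec4d were also low in the immature cluster, and the inhibitory members were not. Clec7a stood at 38.0, 25.4 and 46.4 CPM there in TAA, TAA+C7.5 and TAA+C30, against 1122 to 2238 CPM in the other neutrophil clusters over all libraries. Clec4d stood at 212, 135 and 173 CPM, against 1306 to 2318 CPM. Clec4e kept 982, 812 and 914 CPM in the immature cluster, against 1956 to 3502 CPM in the others. Clec12a stood at 162, 169 and 166 CPM in the immature cluster, against 56.6 to 132 CPM in the others. Clec4a2 stood at 241, 338 and 314 CPM, against 45.6 to 149 CPM, so the immature cluster had the highest Clec4a2 of the neutrophil clusters in each of these 3 libraries.

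**Figure D3:**
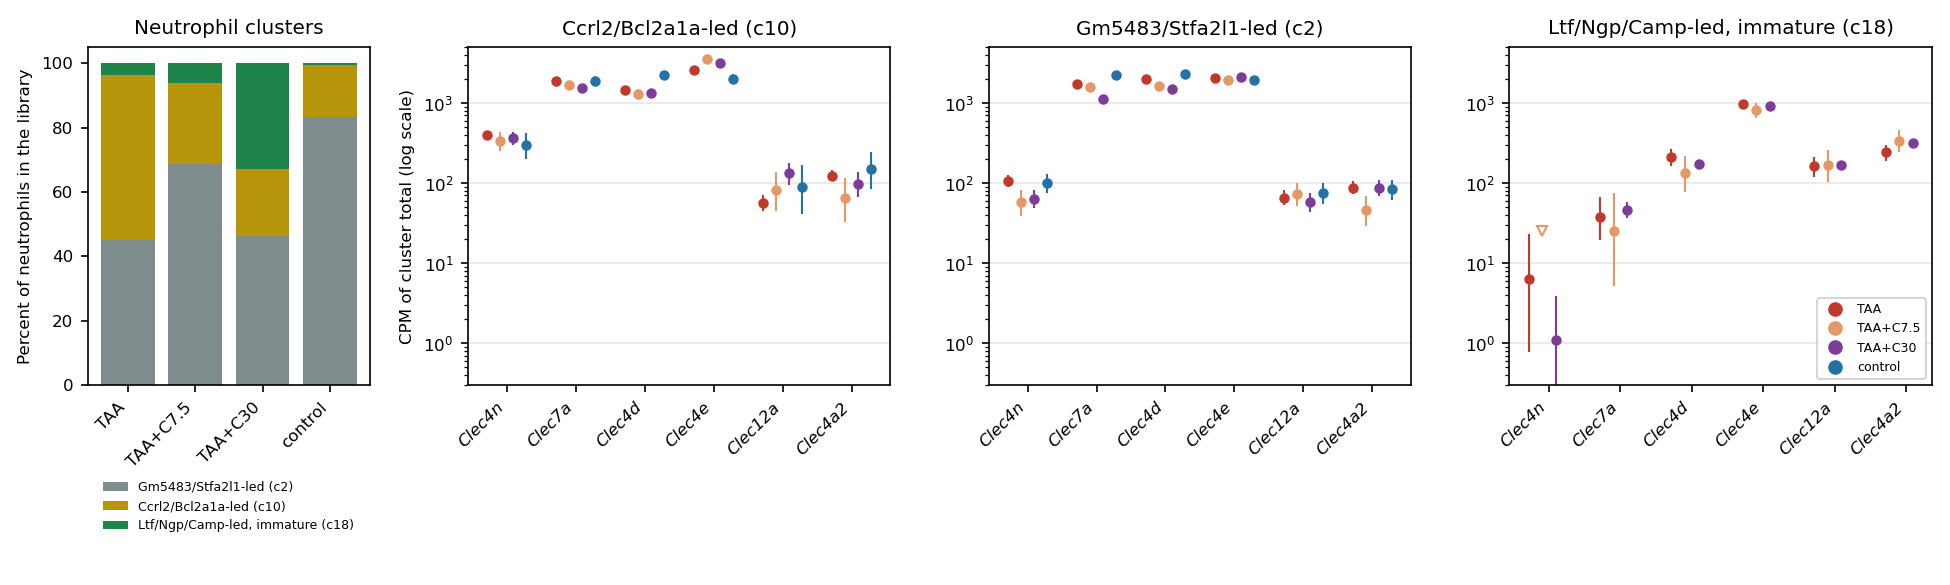
Left, percent of each library's neutrophils in 3 clusters; right, CPM (log axis) of 6 members in each cluster, 1 point per library with at least 20 cells, with exact Poisson 95% intervals; the open triangle marks 0 UMIs, at the floor of 3 counts. The immature cluster makes up 32.9% of neutrophils in TAA+C30 against 3.66% in TAA, and there Clec4n and Clec7a are low and Clec4a2 and Clec12a high.

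Neutrophils were also binned by the share of their UMIs from 12 immature granule genes in place of clusters. In TAA+C30, Clec4n stood at 226 CPM in cells with under 0.2% granule UMIs, 42.1 CPM between 0.2 and 1%, 1.57 CPM between 1 and 5% and 1.56 CPM above 5%. Clec7a stood at 1497, 936, 182 and 31.1 CPM in those bins. Clec4a2 ran the other way, at 70.6, 98.2, 249.9 and 337 CPM. In TAA, with only 33 and 20 cells in the last bins, Clec4n stood at 300.2, 114, 6.08 and 5.71 CPM. Its values in those last bins rest on 1 UMI each. Clec7a stood at 1897, 1493, 188 and 17.1 CPM in TAA and Clec4d at 1669, 1868, 626 and 45.7 CPM. Clec4a2 stood at 114, 82.3, 170.1 and 274 CPM in TAA. Clec12a stood at 85.0, 54.1, 130.5 and 181 CPM in TAA+C30, so Clec4d and Clec4a2 in TAA and Clec12a in TAA+C30 kept no steady order over the lowest bins.

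Celecoxib at 30 mg/kg was compared with TAA to ask which members differed with treatment in fibrotic liver. A member counted as measured in a class when the libraries compared held 30 or more UMIs of it between them and the higher one reached 50 CPM, and as higher or lower past a CPM ratio of 1.5. Of 21 measured pairs of member and class, 3 were higher and 4 lower in TAA+C30, among all measured genes 4.89% and 10.7% (the rule had used the neutrophil values of this contrast). In neutrophils the background was wide: 36.8% of measured genes were lower and 7.74% higher, and the median log2 ratio over all measured genes was -0.42. Over the 6 measured members the median was -0.84, which includes the Clec4n value that the rule had used and so is a description. The other measured members had log2 ratios of -1.59 (Clec7a), -1.15 (Clec4d), -0.52 (Clec4e), 0.84 (Clec12a) and 0.89 (Clec4a2). Clec4a1 and Clec4a3 were under 50 CPM in both libraries. The 12 neutrophil markers summed to 306436 CPM in TAA+C30 neutrophils and 177094 CPM in TAA neutrophils. Trimmed-mean scaling raised every neutrophil log2 ratio of this comparison by 0.43.

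In TAA+C30 neutrophils Clec4n, Clec7a and Clec4d were lower past 1.5-fold, and Clec4a2 and Clec12a were higher. Clec4n stood at 58.1 CPM in TAA+C30 and 228 CPM in TAA, a ratio of 0.255 (0.215 to 0.301), or 0.343 under trimmed-mean scaling. Clec7a stood at 533 and 1608 CPM (0.332, 0.314 to 0.351) and Clec4d at 699 and 1556 CPM (0.449, 0.427 to 0.473). Clec4e, at 1504 and 2163 CPM, did not reach the threshold (0.695). Clec4a2 stood at 222 and 120.0 CPM (1.85, 1.62 to 2.11) and Clec12a at 129 and 72.0 CPM (1.79, 1.51 to 2.13). Among neutrophils with at least 1000 UMIs, each thinned to 1000, 6.65% in TAA+C30 and 17.5% in TAA had a Clec4n UMI. Shallower cells were left out of these shares. The immature cluster had a median of 4972 UMIs per cell, against 1905 in the Gm5483-led and 1887 in the Ccrl2-led cluster. What that cut did to the shares was not tested. Unthinned, 9.39% of TAA+C30 neutrophils and 26.5% of TAA neutrophils had a Clec4n UMI. Unthinned T cells had 0.201% and 0.849%, at median depths of 2754 and 4831 UMIs, against 1846 and 2342 UMIs in the neutrophils.

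Within the Ccrl2-led and Gm5483-led clusters the ratios of Clec4n and Clec7a lay closer to 1 than over all neutrophils. In the Ccrl2-led cluster the TAA+C30 over TAA ratio of Clec4n was 0.901 (from 0.732) and that of Clec7a 0.828. In the Gm5483-led cluster they were 0.604 (from 0.440) and 0.652. The immature cluster held too few Clec4n UMIs for a ratio. In the bins of granule UMIs the ratio of Clec4n was 0.754 (0.628 to 0.900) under 0.2% and 0.370 (0.216 to 0.611) between 0.2 and 1%. That of Clec7a was 0.789 and 0.627 in those bins. Without the immature cluster the neutrophil ratio of Clec4n was 0.548, of Clec7a 0.685, of Clec4d 0.846 and of Clec4e 1.02, while Clec4a2 turned to 0.850. With each of the 3 clusters given the same weight in both libraries, Clec4n stood at 0.824, Clec7a at 0.736, Clec4d at 0.813, Clec4e at 1.10, Clec12a at 1.31 and Clec4a2 at 1.03, none past 1.5-fold. Clec12a differed between the clusters: its ratio was 2.34 (1.57 to 3.44) in the Ccrl2-led cluster, at 132 CPM in TAA+C30 and 56.6 CPM in TAA, 0.871 (0.610 to 1.23) in the Gm5483-led cluster and 1.03 (0.761 to 1.41) in the immature cluster. Without the immature cluster its neutrophil ratio was 1.25.

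**Figure D4:**
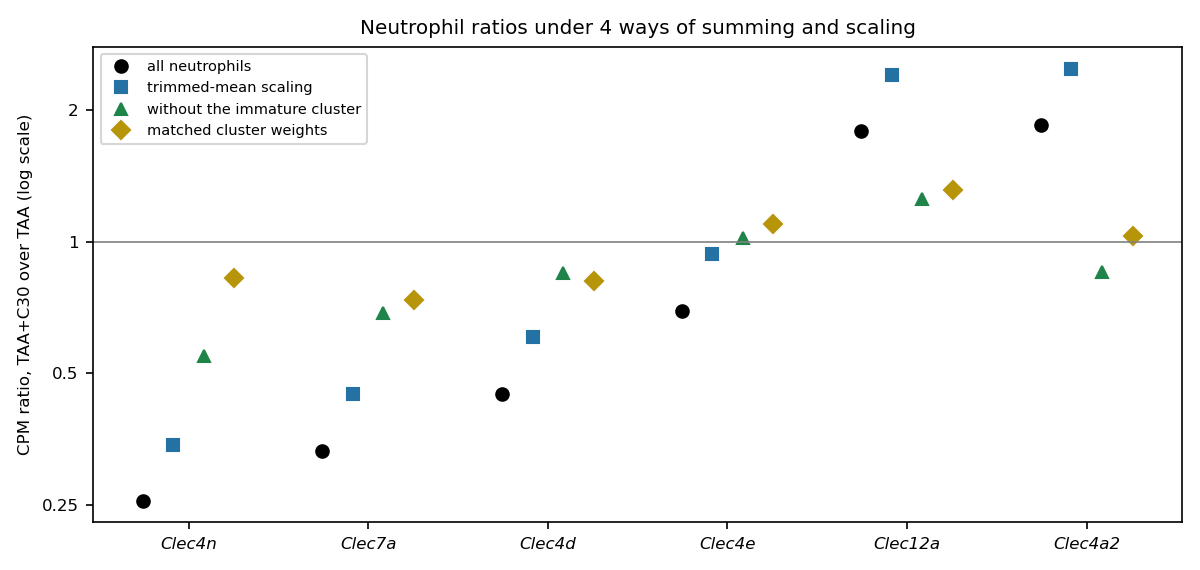
CPM ratio (log axis) of 6 members in neutrophils, TAA+C30 over TAA, from all neutrophils, under trimmed-mean scaling, without the immature cluster, and with matched cluster weights. The ratio of Clec4n runs from 0.255 over all neutrophils to 0.824 with matched weights, and that of Clec4a2 turns from 1.85 to 0.850 without the immature cluster.

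The genes around the receptors were read in neutrophils against the same background, with 36.8% of measured genes lower and 7.74% higher. Of 14 measured genes of stimulatory lectin signalling 4 were lower in TAA+C30 and 0 higher, a lower share below that of all measured genes. Their median log2 ratio was -0.43, close to the -0.42 of all measured genes. The lower genes included Syk, the kinase shared by these receptors, at 253 CPM in TAA+C30 and 537 CPM in TAA. Malt1, of the Card9 complex, was lower too, at 229 and 497 CPM. Of 9 genes of inhibitory signalling 5 were lower and 0 higher, among them the phosphatase gene Inpp5d, at 117 CPM in TAA+C30 and 279 CPM in TAA. Of 9 measured cytokine genes known to follow lectin signalling 7 were lower. All 9 measured immature granule genes were higher, led by Ltf, which encodes lactoferrin, at 4515 CPM in TAA+C30 and 641 CPM in TAA.

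Outside neutrophils, 1 member was lower and 1 higher in TAA+C30. Clec7a in monocytes or macrophages stood at 737 CPM in TAA+C30 and 1330.4 CPM in TAA (0.554, 0.539 to 0.570), where 8.88% of measured genes were lower. The macrophage cluster, led by Ms4a7, Gpnmb, C1qb, Cxcl14 and Tmem119, held 23.2% of this class in TAA+C30 and 51.8% in TAA, and its Clec7a level was 1282 and 1667 CPM, against 579 and 778 CPM in classical monocytes. Within that cluster the ratio of Clec7a was 0.769, in classical monocytes 0.744 and in non-classical monocytes 0.874. The 12 neutrophil markers summed to 2069 CPM in this class in TAA+C30 and 1186 CPM in TAA; their part in the result was not tested. Clec4a3 in cDC2 stood at 78.1 CPM in TAA+C30 and 37.7 CPM in TAA (2.07, 1.64 to 2.62), where 3.75% of measured genes were higher. It was also higher in the cDC2 cluster led by Cd209a, Ctnnd2, Flt3, Clec10a and Lmo1, at 62.2 CPM in TAA+C30 and 18.6 CPM in TAA.

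Celecoxib at 7.5 mg/kg was compared with TAA in the same way. Of 20 measured pairs 2 were higher and 1 lower, among all measured genes 7.06% and 6.32%. These counts lie near the shares of all genes. The lower pair was Clec4n in neutrophils, at 107 CPM in TAA+C7.5 and 228 CPM in TAA (0.471, 0.371 to 0.591), where 8.80% of measured genes were lower. The rule had used that TAA value, so this pair is a description. Within the Gm5483-led cluster the Clec4n ratio was 0.545 and within the Ccrl2-led cluster 0.825. The higher pairs were Clec4a2 and Clec4a3 in cDC2. Clec4a2 stood at 98.5 CPM in TAA+C7.5 and 58.4 CPM in TAA (1.69, 1.25 to 2.25), and Clec4a3 at 73.4 and 37.7 CPM (1.95, 1.36 to 2.73), where 7.88% of measured genes were higher. The TAA+C7.5 counts behind them were 59 and 44 UMIs, and with doublets kept 0 pairs were higher past 1.5-fold, the Clec4a2 ratio being 1.21. In the macrophage cluster Clec4d stood at 26.7 CPM in TAA+C7.5 and 77.4 CPM in TAA (0.344, from 0.221), and Clec4e at 69.3 and 165 CPM (0.421, from 0.323). In that cluster 5.41% of all measured genes were lower. Over all monocytes or macrophages the ratios were 0.792 for Clec4d and 0.871 for Clec4e, within 1.5-fold. The 12 neutrophil markers summed to 846 CPM in this class in TAA+C7.5 and 1186 CPM in TAA. Their part in the result was not tested. The 2 doses share the TAA library as their comparison, so their ratios are not independent.

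The doses themselves were compared next. Of 21 measured pairs 2 were higher and 4 lower in TAA+C30 than in TAA+C7.5, among all measured genes 4.17% and 10.1%. Clec7a in neutrophils stood at 533 CPM in TAA+C30 and 1369.7 CPM in TAA+C7.5 (0.390, 0.361 to 0.421), Clec4d at 699 and 1347 CPM (0.519, 0.482 to 0.559) and Clec4n at 58.1 and 107 CPM (0.541, 0.416 to 0.709). The rule had used the TAA+C30 value of Clec4n, so its pair is a description. In neutrophils 34.2% of measured genes were lower and 5.82% higher, and trimmed-mean scaling moved Clec4d to 0.696 and Clec4n to 0.725, within 1.5-fold, and Clec7a to 0.522. Without the immature cluster the ratios were 0.766 for Clec7a, 0.931 for Clec4d and 1.11 for Clec4n, none past 1.5-fold. Clec4a2 stood at 222 CPM in TAA+C30 neutrophils and 93.5 CPM in TAA+C7.5 neutrophils (2.37, 1.86 to 3.06), and at 63.7 and 98.5 CPM in cDC2 (0.647, 0.468 to 0.903), where 6.36% of measured genes were lower. With matched weights the Clec4a2 ratio was 1.20 in neutrophils and 0.654 in cDC2, and the cDC2 ratio was 0.690 under trimmed-mean scaling. Clec4e in monocytes or macrophages stood at 333 CPM in TAA+C30 and 215 CPM in TAA+C7.5 (1.55, 1.41 to 1.70), where 2.63% of measured genes were higher, and the ratio was 1.35 with matched weights. The neutrophil markers summed to 2069 CPM in this class in TAA+C30 and 846 CPM in TAA+C7.5; their part in the result was not tested.

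Thioacetamide itself was compared with control to ask how the receptors differed in fibrotic liver. Of 25 measured pairs 9 were higher and 5 lower in TAA, among all measured genes 13.3% and 19.2%. The higher pairs were of Clec4n, Clec4d, Clec7a, Clec12a and Clec4a2, and the lower pairs of Clec4a1 or Clec4a3, a lower share close to that of all genes. With matched cluster weights, which 21 pairs allowed, 4 were higher (Clec7a and Clec4a2 in Kupffer cells, which are 1 cluster, and Clec4d and Clec4e in monocytes or macrophages) and 2 lower (Clec4a1 and Clec4a3 in Kupffer cells). The cDC2 of the libraries lay in different clusters: the Ffar2-led cluster held 2.75% of cDC2 in TAA and 40.6% in control, and the cluster led by Cd209a and Clec4b1 22.9% and 2.90%. No cDC2 cluster had 20 cells in both libraries, so the cDC2 ratios below have no within-cluster value. Trimmed-mean scaling added 0.12 to 0.29 to the log2 ratios of this comparison, depending on class. That shift is too small to turn the direction of any of the 14 called pairs.

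Clec7a was higher in TAA in monocytes or macrophages, Kupffer cells and cDC2. It stood at 1330.4 CPM in TAA and 616 CPM in control in monocytes or macrophages (2.16, 2.01 to 2.32), where 13.1% of measured genes were higher, at 899.8 and 420.5 CPM in Kupffer cells (2.14, 1.89 to 2.43), where 19.8% were higher, and at 835 and 351 CPM in cDC2 (2.38, 2.10 to 2.71), where 11.8% were higher. In neutrophils it was not higher, at 1608 CPM in TAA and 2155 CPM in control. Within classical monocytes the ratio was 1.23, within non-classical monocytes 2.07 and within the macrophage cluster 1.21, and with matched weights 1.26.

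Clec4a1 was lower in TAA in monocytes or macrophages, Kupffer cells and cDC2, and Clec4a3 in monocytes or macrophages and Kupffer cells. Clec4a1 stood at 205 CPM in TAA and 436 CPM in control in monocytes or macrophages (0.469, 0.428 to 0.515), at 196 and 432 CPM in Kupffer cells (0.453, 0.384 to 0.533) and at 38.4 and 113 CPM in cDC2 (0.339, 0.259 to 0.444). Among all measured genes 19.5% were lower in monocytes or macrophages, 21.3% in Kupffer cells and 24.1% in cDC2. Clec4a3 stood at 221 CPM in TAA and 480.2 CPM in control in monocytes or macrophages (0.461, 0.422 to 0.504) and at 175 and 298 CPM in Kupffer cells (0.586, 0.487 to 0.705). In cDC2 Clec4a3 was under 50 CPM in both libraries and so not measured, at 37.7 CPM in TAA and 40.9 CPM in control (0.922, 0.625 to 1.40). Within clusters the Clec4a1 ratio was 0.744 in classical monocytes, 0.573 in non-classical monocytes and 0.711 in macrophages, all below 1. Clec4a3 had 0.636 and 0.574 in the monocyte clusters and 1.01 in macrophages. With matched weights the ratios in monocytes or macrophages were 0.676 for Clec4a1 and 0.711 for Clec4a3, within 1.5-fold.

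Clec4n was higher in TAA in monocytes or macrophages, at 70.1 CPM in TAA and 30.7 CPM in control (2.28, 1.66 to 3.23), and in neutrophils, at 228 and 126 CPM (1.81, 1.45 to 2.29), and not in Kupffer cells, at 177 and 186 CPM. The rule had used the TAA neutrophil value, so the neutrophil pair is a description. In neutrophils 10.5% of measured genes were higher. The cluster shares differed as well: the macrophage cluster, at 90.4 CPM of Clec4n in TAA and 84.4 CPM in control, made up 51.8% of its class in TAA and 13.7% in control. Within it the ratio was 1.07, and within classical monocytes 1.08. Among neutrophils the Ccrl2-led cluster made up 51.4% in TAA and 16.4% in control; the Clec4n ratio was 1.35 (from 0.938) within it and 1.07 within the Gm5483-led cluster. With matched cluster weights the Clec4n ratio in monocytes or macrophages was 1.13.

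Clec4d was higher in TAA inside the non-classical monocyte and macrophage clusters, and within 1.5-fold in classical monocytes (1.10). In monocytes or macrophages it stood at 73.1 CPM in TAA and 38.6 CPM in control (1.90, 1.42 to 2.58), and with matched weights the ratio was 2.75. The 12 neutrophil markers summed to 1186 CPM in this class in TAA and 749 CPM in control; their part in the result was not tested. In non-classical monocytes it stood at 64.8 CPM in TAA and 13.3 CPM in control (4.88, from 2.12), and Clec4e at 436 and 177 CPM (2.46, from 1.93). In the macrophage cluster Clec4d stood at 77.4 CPM in TAA and 9.93 CPM in control (7.80, from 2.15), a control value of 2 UMIs in 29 cells. Clec12a stood at 345 CPM in TAA and 209 CPM in control in monocytes or macrophages (1.65, 1.45 to 1.87; 1.22 with matched weights) and at 164 and 52.7 CPM in cDC2 (3.12, 2.27 to 4.40). Clec4a2 in Kupffer cells stood at 151 CPM in TAA and 82.0 CPM in control (1.85, 1.39 to 2.49). In the Kupffer class the 10 classical monocyte markers summed to 1006 CPM in TAA and 277 CPM in control, the 12 neutrophil markers to 532 and 220.0 CPM and the 14 endothelial markers to 659 and 2855 CPM, against 18007 and 23374 CPM of the 11 Kupffer markers. Their part in the Kupffer ratios was not tested.

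**Figure D5:**
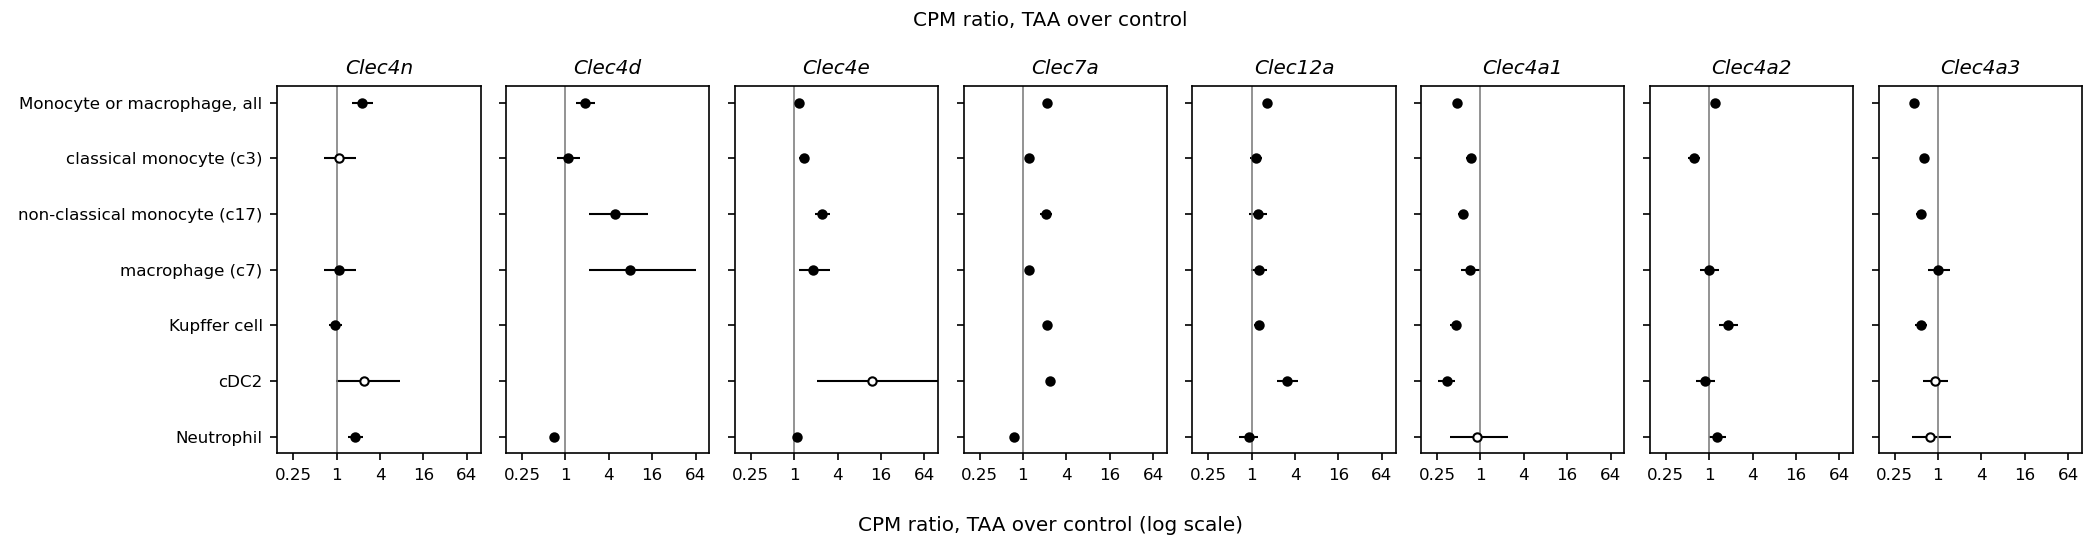
CPM ratio, TAA over control (log axis), of each member in 4 classes and in 3 clusters of the monocytes or macrophages, with exact conditional binomial 95% intervals, 1 of which (Clec4e in cDC2) runs past the axis; open points have under 50 CPM in the higher library, and values with under 30 UMIs together or 0 UMIs in a library are not drawn. Clec4a1 lies below 1 in each row with a filled point, and Clec4n lies near 1 within classical monocytes and macrophages.

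The signalling genes were counted in the same comparison. Among all measured genes 13.1% were higher and 19.5% lower in monocytes or macrophages, and 19.8% higher and 21.3% lower in Kupffer cells. In monocytes or macrophages 0 of 14 measured stimulatory signalling genes were higher and 5 lower, with a median log2 ratio of -0.45 against -0.13 over all measured genes and 0.50 over the 8 members. Fgr, a Src-family kinase gene, stood at 145 CPM in TAA and 343 CPM in control. Of 8 inhibitory genes 1 was lower, Ptpn6, at 212 CPM in TAA and 383 CPM in control. Of 6 measured other lectin genes 1 was higher, Clec1b, a gene highest in Kupffer cells, with a ratio of 3.66 (the 11 Kupffer markers summed to 956 CPM in this class in TAA and 294 CPM in control), and of 8 lectin-induced cytokine genes 4 were higher. In Kupffer cells 2 of 14 stimulatory genes were higher and 0 lower, with a median log2 ratio of 0.17 against 0.14 over the 6 measured members and -0.07 over all measured genes. Of 15 genes of the response to tissue dissociation 9 were higher and 3 lower in TAA Kupffer cells, and 3 were higher and 5 lower in TAA monocytes or macrophages; their part in the receptor values was not tested.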

How the data were processed

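Cells of 4 libraries, 1 mouse each, were measured by 10x 3 prime droplet sequencing. The deposited values were UMI counts per gene and cell, made by the authors with Cell Ranger 3.1.0 against mm10 per the submitters' processing notes; the annotation was not given in the sources used here. Barcodes under 200 genes or over 20% mitochondrial UMIs were dropped, and 52 to 172 doublets per library were removed with Scrublet (expected rate 5%). Cells were clustered with Scanpy 1.11.5 and Leiden (2000 variable genes without the 8 members, 30 components) and clusters named from marker lists; 9 of 46 stayed unnamed (6.25% of cells). Names rebuilt here may differ from the study's.

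UMIs were summed per class and library and given as CPM. Ratios have exact conditional binomial intervals at 95%, shares exact Clopper-Pearson intervals, levels exact Poisson intervals; a count of 0 has a floor of 3 counts. All cover counting error only. A level was compared with at least 50 cells in each library, 30 UMIs together and 50 CPM in the higher library, and counted as higher or lower at 1.5-fold. On simulated data with 200 changed genes the calls were checked. The members, the gene lists and the clusters' use were chosen with earlier results of these data known. All 8 members are named; besides them, the genes most like each member, up to 2 genes at each end of a list, and the 5 leading genes of a cluster. Planned comparisons of protein sequence were not made.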

Additional observations from a re-analysis of the deposited data

Results flagged for a closer look

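Clec4a2 differed between the doses in opposite directions in 2 classes. In neutrophils it stood at 222 CPM in TAA+C30 and 93.5 CPM in TAA+C7.5, a ratio of 2.37, and in cDC2 at 63.7 CPM in TAA+C30 and 98.5 CPM in TAA+C7.5, a ratio of 0.647. With 1 mouse per group the difference between the classes was not tested. The immature cluster, with the highest Clec4a2 among neutrophil clusters, held 32.9% of neutrophils in TAA+C30 and 6.20% in TAA+C7.5.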

How the results depend on the processing

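Ratios were recomputed under 10 alternatives and under 2 chosen after seeing the data, which left out the immature neutrophil cluster or a low-depth monocyte cluster. Of 87 ratios, all kept their direction and size within their interval with 10 CPM added. All did so without the low-depth cluster too, but that step could change only ratios of monocytes or macrophages. The count was 85 with cells of at least 1000 UMIs and 86 with the members among the variable genes. It was 59 under trimmed-mean scaling and 37 of 83 with matched cluster weights.

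Clec4n in neutrophils, TAA+C30 over TAA (0.255), was 0.343 under trimmed-mean scaling, 0.824 with matched weights and 0.548 without the immature cluster. Clec4a2 in that comparison (1.85) turned to 0.850 without the immature cluster, and Clec4n, TAA+C30 over TAA+C7.5 (0.541), turned to 1.10 with matched weights and 1.11 without that cluster.

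The 9 higher pairs of TAA over control became 15 with no minimum, 5 at 2-fold and 4 with matched weights, and the 5 lower pairs 2 with matched weights, which only 21 of the 25 pairs allowed. For TAA+C7.5 over TAA, the 2 higher pairs became 6 with no minimum, 0 at 2-fold, 1 with marker-score classes and 0 with doublets kept; the 1 lower pair became 9 with no minimum, 3 with marker-score classes, and 2 each with a mitochondrial limit of 10%, matched weights and without the immature cluster. For TAA+C30 over TAA, the 3 higher pairs became 5 with no minimum, 1 at 2-fold and 1 without the immature cluster. The 4 lower pairs became 15 with no minimum and 2 each with matched weights and without the immature cluster. Counts were made afresh at each setting and need not hold the same pairs. With matched weights no measured member in neutrophils was past 1.5-fold in this comparison. For TAA+C30 over TAA+C7.5, the 2 higher pairs became 5 with no minimum and 1 each at 2-fold and with matched weights, and the 4 lower pairs 1 under trimmed-mean scaling, 12 with no minimum, 1 at 2-fold and 1 without the immature cluster. The minimum and the fold set those counts by construction; for the others the cause was not tested.

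No paired analysis was possible because each group had 1 sample.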
